A study of Mus musculus with 12 samples.

Results

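A set of 134 genes had higher mRNA levels in mouse 4T1 cells carrying either of 2 guide RNAs against Cebpd than in cells carrying a Rosa26 guide, in vehicle as well as in interferon gamma (IFN-gamma). They were chosen from 16283 counted genes by their levels. A gene had to average at least 0.5 CPM (its count divided by the library total and multiplied by 1000000) in each of the 4 Cebpd groups, which 12024 genes did. Its mean CPM plus 0.1 had also to be at least 2 times that of the Rosa26 group of the same treatment, for each guide and in each treatment. Il6, Ccl2, Ccl9 and Ptx3 were left out by name. The 4 differences between a Cebpd guide and Rosa26 are therefore what chose the genes, and they are given here as a description without a test.

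4T1 is a mammary carcinoma line from a BALB/c mouse. RNA was sequenced from 12 libraries in 6 groups of 2: Cebpd sgRNA1 in vehicle, Cebpd sgRNA2 in vehicle, Rosa26 in vehicle, Cebpd sgRNA1 in IFN-gamma, Cebpd sgRNA2 in IFN-gamma and Rosa26 in IFN-gamma. IFN-gamma was given at 20 ng/ml for 24 hours. The labels name the Rosa26 lines as control, and they do not say whether a line is a clone or a pool, and they give no separate culture for each library, so p-values measure only the spread between libraries. Each guide stands for 1 line, and a difference between lines cannot be told apart from one made by the guide.

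C/EBP-delta, the product of Cebpd, is a basic leucine zipper transcription factor that is induced by inflammatory signals and is known for binding the promoters of acute phase and cytokine genes. IFN-gamma signals through JAK kinases and induces antigen presentation and antiviral genes. Rosa26 is a locus in which cutting is commonly used as a control for the act of genome editing.

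Library totals lay between 16912710 and 24784371 counts. Cebpd mRNA itself was counted in every library, at 13.4 and 13.1 CPM with sgRNA1 in vehicle, 10.3 and 8.19 CPM with sgRNA2 in vehicle and 8.99 and 7.07 CPM with Rosa26 in vehicle. In IFN-gamma it stood at 49.8 CPM in both sgRNA1 libraries, 30.2 CPM in both sgRNA2 libraries and 51.5 and 47.4 CPM in Rosa26 libraries. A mutated transcript can still be counted, so these levels do not check the labels. The 6 epithelial markers of the line (Epcam, Cdh1, Krt7, Krt8, Krt18 and Krt19) summed to 2819.9 to 3910.1 CPM in every library.

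The upstream sequences of 4 of the genes are shown first: Cyp1b1 and Fendrr because they are among the 12 genes with the largest ratios and carry a short xenobiotic response element core, and Saa3 and Chst7 because they carry a match to the C/EBP recognition letters. Kif26b and Ndrg2, also among the 12 genes, hold the same core 2 times in a window and are not shown. Each run is the 250 bases before the RefSeq gene start on GRCm38.p6 (the assembly also named mm10), written 5′ to 3′ on the strand of the gene, and capitals mark the match. Cyp1b1 lies at chr17:79715062-79715311 on the minus strand and Fendrr at chr8:121083111-121083360 on the minus strand. Saa3 lies at chr7:46715677-46715926 on the minus strand and Chst7 at chrX:20059320-20059569 on the plus strand.
Cyp1b1: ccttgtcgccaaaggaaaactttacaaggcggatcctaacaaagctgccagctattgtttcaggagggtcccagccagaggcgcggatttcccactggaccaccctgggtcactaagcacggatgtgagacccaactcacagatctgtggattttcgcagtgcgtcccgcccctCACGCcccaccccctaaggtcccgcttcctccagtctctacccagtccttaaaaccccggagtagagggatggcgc
Fendrr: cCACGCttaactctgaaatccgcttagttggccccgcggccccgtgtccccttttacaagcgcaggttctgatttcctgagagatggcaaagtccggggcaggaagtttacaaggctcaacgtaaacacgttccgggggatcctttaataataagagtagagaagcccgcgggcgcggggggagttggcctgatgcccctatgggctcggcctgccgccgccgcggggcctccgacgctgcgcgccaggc
Saa3: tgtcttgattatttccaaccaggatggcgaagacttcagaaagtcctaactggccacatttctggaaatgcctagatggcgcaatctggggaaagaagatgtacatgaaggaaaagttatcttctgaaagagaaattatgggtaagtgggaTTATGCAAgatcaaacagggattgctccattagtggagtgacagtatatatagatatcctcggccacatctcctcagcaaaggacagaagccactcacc
Chst7: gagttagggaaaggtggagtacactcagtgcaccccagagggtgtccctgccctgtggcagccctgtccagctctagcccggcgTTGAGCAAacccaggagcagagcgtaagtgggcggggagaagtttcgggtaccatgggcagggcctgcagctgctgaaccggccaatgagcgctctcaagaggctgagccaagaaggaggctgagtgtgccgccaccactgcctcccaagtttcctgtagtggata

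RefSeq windows of this length were at hand for 88 of the 134 genes, and for 27025 genes in all. The latter were taken whether or not they reached the level limit asked of the 88 genes. The letters GCGTG, the xenobiotic response element core, were found on either strand for 31.8% of the 88 genes and for 30.9% of all genes. The C/EBP letters TTGCNNAA were found for 7.95% of the 88 genes and 10.8% of all genes. The antioxidant response element letters TGACNNNGC were found for 14.8% against 11.5%, the AP-1 letters TGANTCA for 6.82% against 7.82%, and the GAS letters TTCNNNGAA for 5.68% against 8.13%. The interferon-stimulated response element letters GAAANNGAA were found for 7.95% against 8.18% and the NF-kB letters GGANTTTCC for 2.27% against 1.25%. None of these shares was tested, a match is a description of letters and not a site, and the motifs can overlap each other. The windows of the 88 genes had a median G+C content of 58.8% and 10 CG pairs, against 52.4% and 6 CG pairs over all 27025 genes. The part of the level limit in these differences was not tested.

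Against Rosa26, the median ratio of the 134 genes was 3.42 with sgRNA1 and 4.50 with sgRNA2 in vehicle, and 3.15 with sgRNA1 and 3.03 with sgRNA2 in IFN-gamma. Over all 12024 genes at the level limit the medians were 0.997, 0.986, 1.12 and 1.06 in the same order. Each single comparison took in far more genes than the set: a ratio of at least 2 was met by 4.50% of the 12024 genes with sgRNA1 in vehicle, 14.2% with sgRNA2 in vehicle, 11.2% with sgRNA1 in IFN-gamma and 6.24% with sgRNA2 in IFN-gamma. The mirror image of the rule, in which Rosa26 was at least 2 times each guide in each treatment, was met by 13 of the 11862 genes that averaged 0.5 CPM in both Rosa26 groups. The largest of the 4 ratios was that of sgRNA2 in vehicle for 80 genes, sgRNA1 in IFN-gamma for 33, sgRNA1 in vehicle for 12 and sgRNA2 in IFN-gamma for 9.

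Most of the genes were scarce. Their mean over the 8 Cebpd libraries reached 1 CPM for 118 genes, 10 CPM for 29 and 100 CPM for 2, namely Cldn3 and Cyp1b1. Together the 134 genes summed to 947 and 923 CPM with sgRNA1, 1127 and 1101 CPM with sgRNA2 and 266 and 262 CPM with Rosa26 in vehicle. In IFN-gamma they summed to 1477 and 1462 CPM with sgRNA1, 1248 and 1291 CPM with sgRNA2 and 383 and 376 CPM with Rosa26. For 131 genes every Cebpd library lay above both Rosa26 libraries of its treatment. The 2-fold limit on the means of these same libraries largely brings this about, and the share over all genes was not counted. The exceptions among the 134 genes were Coro2b, Gm49392 and Gm6361, 1 or more of whose Cebpd libraries lay within or below the Rosa26 range.

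**Figure D1:**
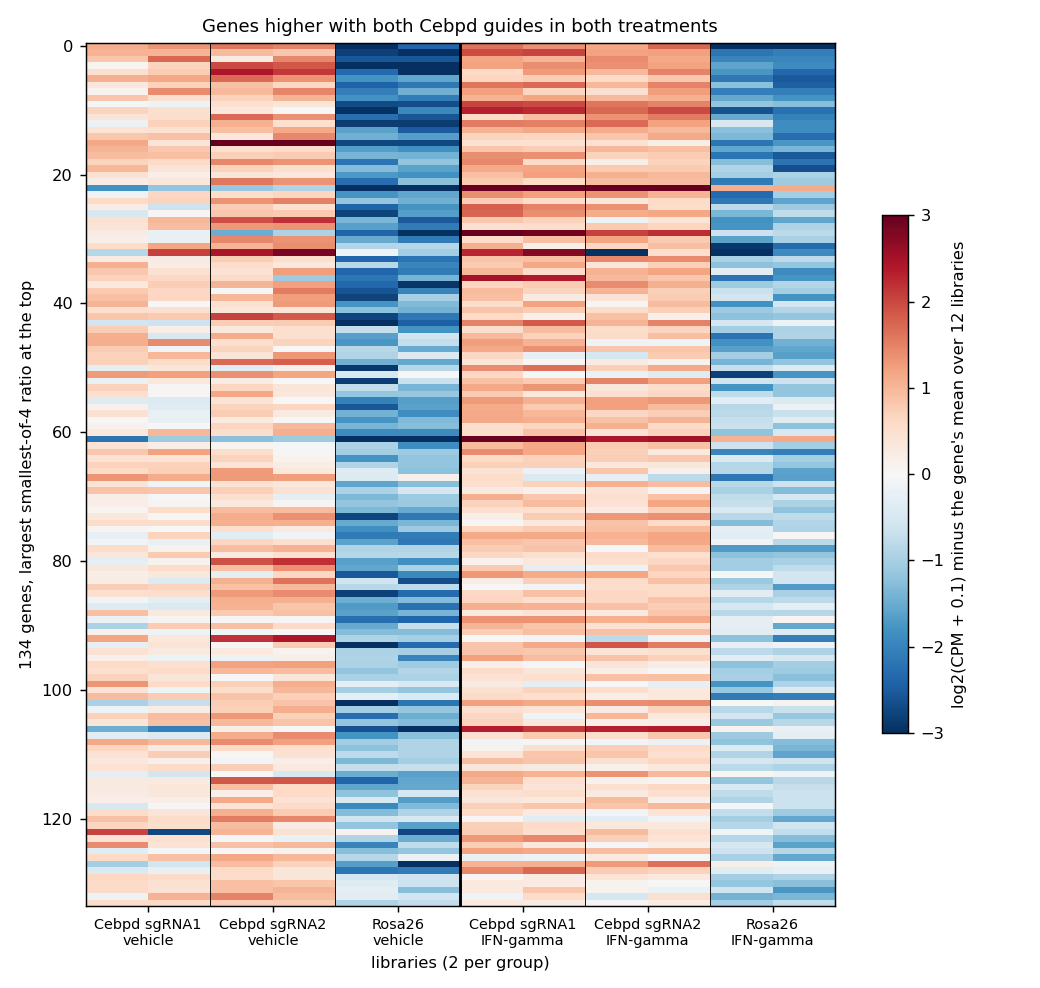
Heat map of the 134 genes (rows, ordered by the smallest of their 4 ratios) in the 12 libraries (columns, 2 per group), coloured by log2(CPM + 0.1) minus the mean of the gene over 12 libraries. The Rosa26 columns are blue for nearly all genes in both treatments, as the rule requires, and a few rows such as those of Acod1 and Cmpk2 are red in IFN-gamma.

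By role, assigned from general knowledge after their values were seen, 22 of the 134 genes encode enzymes of xenobiotic, redox and small-molecule metabolism, 16 secreted signals or receptors, 14 matrix proteins, integrins, proteases or inhibitors, 9 innate immune proteins, 5 developmental transcription factors or imprinted transcripts and 5 epithelial junction or keratin proteins. The other 63 were given no role, and their median ratios over Rosa26 were 3.04 with sgRNA1 and 3.73 with sgRNA2 in vehicle, and 2.88 with sgRNA1 and 2.85 with sgRNA2 in IFN-gamma.

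The enzymes had median ratios of 3.88 with sgRNA1 and 5.25 with sgRNA2 in vehicle, and 2.96 with sgRNA1 and 3.48 with sgRNA2 in IFN-gamma. Cyp1b1, a cytochrome P450 monooxygenase of steroids and aromatic hydrocarbons that is a textbook target of the aryl hydrocarbon receptor, stood at 95.6 and 94.2 CPM with sgRNA1, 90.1 and 80.7 CPM with sgRNA2 and 6.54 and 4.88 CPM with Rosa26 in vehicle. With IFN-gamma added it stood at 179 and 189 CPM with sgRNA1, 108 and 109 CPM with sgRNA2 and 10.2 and 11.2 CPM with Rosa26. The groups did not overlap, and the 4 ratios lay between 10.1 and 17.1. Cyp1b1 is on chromosome 17 (79701537 to 79715061, minus strand, mm10).

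Cyp1b1 rose with IFN-gamma in all 3 lines, by 0.81 ± 0.06 (log2, SE) in sgRNA1 cells, 0.27 ± 0.06 in sgRNA2 cells and 0.94 ± 0.12 in Rosa26 cells (edgeR's quasi-likelihood test, Benjamini-Hochberg adjusted p = 1.62e-09, 0.000825 and 1.87e-06). In IFN-gamma it was lower with sgRNA2 than with sgRNA1 by a log2 difference of -0.66 ± 0.06 (edgeR, adjusted p = 7.30e-08).

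Gatm, the mitochondrial amidinotransferase of creatine synthesis, had the highest value for the smallest of its 4 ratios, 14.6. It stood at 1.58 and 1.89 CPM with sgRNA1, 2.26 and 2.13 CPM with sgRNA2 and 0 and 0.052 CPM with Rosa26 in vehicle, the last being 0 and 1 count. In IFN-gamma it stood at 2.34 and 1.95 CPM with sgRNA1 and 1.66 and 2.50 CPM with sgRNA2, and no read was counted in either Rosa26 library. With the floor set at 3 counts per library, Gatm was at least 14.9-fold higher with sgRNA1 and at least 14.4-fold higher with sgRNA2 than with Rosa26 in IFN-gamma. In vehicle, where Rosa26 had a single count, the ratios of counts were 66.9 with sgRNA1 (95% counting interval 11.6 to 2680) and 85.4 with sgRNA2 (14.9 to 3410). These bounds and intervals describe ratios that chose the gene, take no account of that choice and are not a test.

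Cbr3, a carbonyl reductase, stood at 0.940 and 1.83 CPM with sgRNA1 and 0.604 and 1.48 CPM with sgRNA2 in vehicle, against no count in either Rosa26 library. It was there at least 8.97-fold higher with sgRNA1 and at least 6.72-fold higher with sgRNA2. The IFN-gamma values were 1.22 and 1.08 CPM with sgRNA1, 1.45 and 1.17 CPM with sgRNA2 and 0.0465 and 0.0496 CPM with Rosa26, 1 count in each. No difference of Cbr3 between the guides, or between treatments within a guide line, passed the test.

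Nqo1, the quinone reductase that serves as a standard readout of the antioxidant factor NRF2, stood at 25.1 and 19.8 CPM with sgRNA1, 15.5 and 20.0 CPM with sgRNA2 and 7.87 and 7.95 CPM with Rosa26 in vehicle. The IFN-gamma values were 21.0 and 21.6 CPM with sgRNA1, 28.3 and 29.0 CPM with sgRNA2 and 7.77 and 6.40 CPM with Rosa26. Every guide library was above every Rosa26 library. Its response to IFN-gamma differed between the guides: it rose in sgRNA2 cells by 0.62 ± 0.13 (log2, edgeR adjusted p = 0.000329), while sgRNA1 cells gave -0.23 ± 0.13 (adjusted p = 0.125), and the difference of the responses was 0.85 ± 0.18 (edgeR, adjusted p = 0.000832).

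Aldh3a1, an aldehyde dehydrogenase, stood at 12.1 and 10.8 CPM with sgRNA1, 14.6 and 12.7 CPM with sgRNA2 and 2.55 and 2.81 CPM with Rosa26 in vehicle, and at 5.08 and 5.26 CPM with sgRNA1, 5.10 and 4.72 CPM with sgRNA2 and 2.28 and 2.13 CPM with Rosa26 in IFN-gamma. It fell with IFN-gamma in both guide lines, at -1.30 ± 0.15 in sgRNA1 cells and -1.55 ± 0.14 in sgRNA2 cells on the log2 scale (edgeR, adjusted p = 3.69e-07 and 3.60e-08). Rosa26 cells gave -0.24 ± 0.19 (adjusted p = 0.296).

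Cyp1b1, Cbr3, Nqo1 and Aldh3a1 are the members from a list of 38 NRF2 target and xenobiotic enzyme genes, 26 of which were at the level limit. Of those 26, a ratio of at least 2 over Rosa26 was found for 7 with sgRNA1 in vehicle, 13 with sgRNA2 in vehicle, 8 with sgRNA1 in IFN-gamma and 8 with sgRNA2 in IFN-gamma, with list medians of 1.23, 1.95, 1.30 and 1.34. A ratio of at most 0.5 was found for 0, 3, 2 and 1 of them in the same order. Genes of the list outside the set had ratios on both sides of 1. Txnrd1, thioredoxin reductase, averaged 229 CPM with sgRNA1, 141 CPM with sgRNA2 and 262 CPM with Rosa26 in vehicle. In IFN-gamma it averaged 268, 218 and 193 CPM in the same order. Slc7a11, the cystine importer, averaged 6.99 CPM with sgRNA1, 3.18 CPM with sgRNA2 and 11 CPM with Rosa26 in vehicle, but 29.6 CPM with sgRNA1, 26.4 CPM with sgRNA2 and 7.11 CPM with Rosa26 in IFN-gamma.

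Acod1, which makes the antibacterial metabolite itaconate from cis-aconitate, had the largest rise with IFN-gamma in Rosa26 cells among the members called there. It stood at 79.0 and 80.9 CPM with sgRNA1, 64.3 and 66.9 CPM with sgRNA2 and 16.7 and 16.9 CPM with Rosa26 in IFN-gamma, and at 2.13 and 3.37 CPM with sgRNA1, 3.47 and 4.15 CPM with sgRNA2 and 0.153 and 0.156 CPM with Rosa26 in vehicle. It rose by 4.74 ± 0.12 in sgRNA1 cells, 4.04 ± 0.11 in sgRNA2 cells and 6.74 ± 0.24 in Rosa26 cells (log2, edgeR adjusted p = 2.64e-16, 1.38e-15 and 2.22e-14). The response was smaller with sgRNA2 than with sgRNA1 by -0.70 ± 0.20 (edgeR, adjusted p = 0.00762), a call that ended without replicate 1 of sgRNA1 in vehicle (-0.37) and without replicate 2 of sgRNA2 in vehicle (-0.55).

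**Figure D2:**
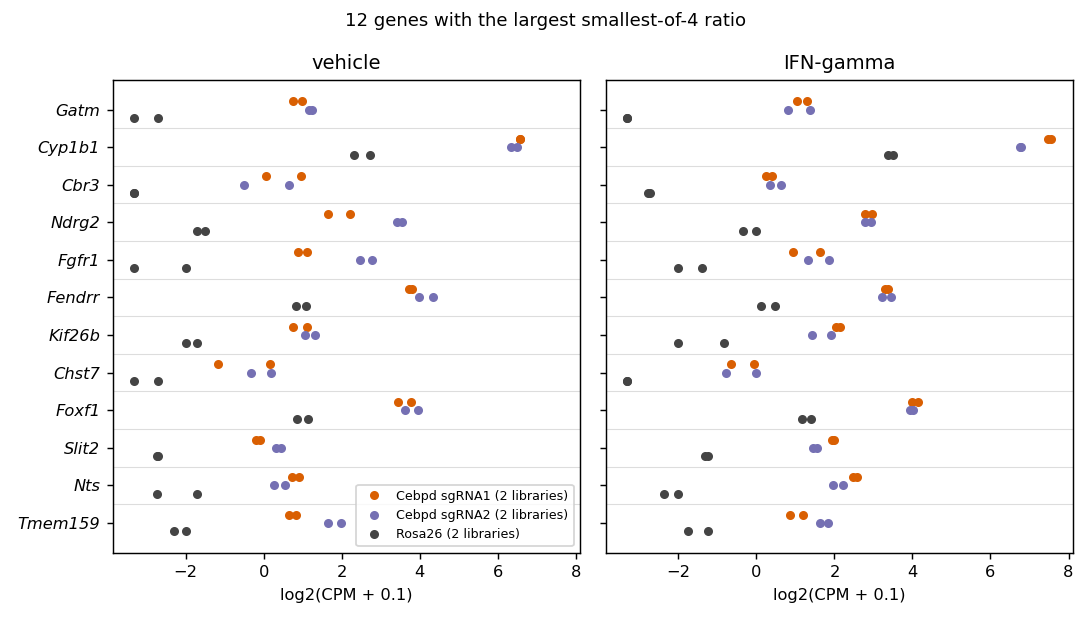
Level of the 12 genes with the largest smallest-of-4 ratio as log2(CPM + 0.1), in vehicle and in IFN-gamma, 1 point per library and 2 libraries per group. For all 12 genes both points of each Cebpd guide lie to the right of both Rosa26 points, and Rosa26 points at the left edge are libraries with no count.

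Genes with no assigned role were also among the largest ratios. Ndrg2, a member of the N-myc downstream regulated family, stood at 3.02 and 4.55 CPM with sgRNA1, 11.5 and 10.6 CPM with sgRNA2 and 0.255 and 0.208 CPM with Rosa26 in vehicle. With IFN-gamma added the values were 6.75 and 7.65 CPM with sgRNA1, 7.52 and 6.74 CPM with sgRNA2 and 0.884 and 0.694 CPM with Rosa26. The guides thus stood apart in vehicle (sgRNA2 over sgRNA1, log2 1.58 ± 0.19, edgeR adjusted p = 7.40e-07) and gave 0.08 ± 0.18 in IFN-gamma (adjusted p = 0.729). Ndrg2 fell with IFN-gamma in sgRNA2 cells, at -0.71 ± 0.17, and rose in Rosa26 cells by 1.78 ± 0.46 (adjusted p = 0.00149 and 0.00213). It rose in sgRNA1 cells by 0.79 ± 0.19 (adjusted p = 0.00162), a call that ended without replicate 1 of sgRNA1 in vehicle (0.51).

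Kif26b, a kinesin family protein, stood at 1.58 and 2.07 CPM with sgRNA1, 2.37 and 1.97 CPM with sgRNA2 and 0.153 and 0.208 CPM with Rosa26 in vehicle, with ratios of 6.86 to 10.4. Tmem159, a protein of lipid droplet assembly, stood at 3.82 and 3.06 CPM with sgRNA2 against 1.48 and 1.66 CPM with sgRNA1 in vehicle (log2 1.16 ± 0.29, edgeR adjusted p = 0.00198), with 0.153 and 0.104 CPM in Rosa26 cells. Chst7, a carbohydrate sulfotransferase whose upstream C/EBP match is printed above, had no count with Rosa26 in IFN-gamma and was there at least 4.87-fold higher with sgRNA1 and at least 4.75-fold higher with sgRNA2. Its levels were low with the guides too, at 0.863 and 0.542 CPM with sgRNA1 and 0.483 and 0.888 CPM with sgRNA2 in IFN-gamma.

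Smagp, a small transmembrane glycoprotein of epithelia, had no count with Rosa26 in vehicle and was there at least 5.20-fold higher with sgRNA1 and at least 7.56-fold higher with sgRNA2. Rosa26 cells had 9 and 2 counts in IFN-gamma, and the call of a rise there ended without the library of 9 counts. In the guide lines it stood at 1.98 and 1.95 CPM with sgRNA1 and 2.25 and 1.57 CPM with sgRNA2 in IFN-gamma, and at 0.544 and 1.06 CPM with sgRNA1 and 1.41 and 0.929 CPM with sgRNA2 in vehicle.

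Signalling proteins and their receptors formed a second group, of 16 genes, with median ratios of 3.75 with sgRNA1 and 6.21 with sgRNA2 in vehicle and 3.49 with sgRNA1 and 3.40 with sgRNA2 in IFN-gamma. Fgfr1, a receptor tyrosine kinase for fibroblast growth factors, stood at 1.73 and 2.07 CPM with sgRNA1, 6.74 and 5.46 CPM with sgRNA2 and 0.153 and 0 CPM with Rosa26 in vehicle. In IFN-gamma it stood at 1.83 and 2.98 CPM with sgRNA1, 2.42 and 3.51 CPM with sgRNA2 and 0.279 and 0.149 CPM with Rosa26. Rosa26 had 3 counts in vehicle, against which the ratio of counts was 24.4 with sgRNA1 (95% counting interval 8.01 to 121) and 79.3 with sgRNA2 (26.8 to 387). Here too the intervals take no account of the choice of the gene by these ratios. Between the guides, Fgfr1 was higher with sgRNA2 in vehicle (log2 difference 1.71 ± 0.31, edgeR adjusted p = 0.000115).

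Slit2, a secreted axon guidance ligand of Robo receptors, stood at 3.86 and 3.74 CPM with sgRNA1, 2.85 and 2.62 CPM with sgRNA2 and 0.326 and 0.298 CPM with Rosa26 in IFN-gamma, and at 0.841 and 0.769 CPM with sgRNA1, 1.26 and 1.15 CPM with sgRNA2 and 0.0511 and 0.0520 CPM with Rosa26 in vehicle. It rose with IFN-gamma by 2.08 ± 0.31 in sgRNA1 cells and 1.11 ± 0.29 in sgRNA2 cells (log2, edgeR adjusted p = 1.10e-05 and 0.00321). In Rosa26 cells, with 2 counts in vehicle, the ratio of counts was 6.06 (95% counting interval 1.37 to 55.3).

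Nts, the precursor of the peptide neurotensin, rose with IFN-gamma in both guide lines. It stood at 5.84 and 5.48 CPM with sgRNA1, 3.81 and 4.56 CPM with sgRNA2 and 0.0931 and 0.149 CPM with Rosa26 in IFN-gamma, and at 1.78 and 1.54 CPM with sgRNA1, 1.36 and 1.09 CPM with sgRNA2 and 0.0511 and 0.208 CPM with Rosa26 in vehicle. The rises were 1.61 ± 0.26 in sgRNA1 cells and 1.70 ± 0.28 in sgRNA2 cells (log2, edgeR adjusted p = 3.63e-05 and 4.11e-05), and Rosa26 cells gave -0.06 ± 0.79 (adjusted p = 0.956). Whether the responses of Rosa26 and guide cells differed was not tested, since that difference is made of the ratios that chose the genes.

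Sema6a, a membrane semaphorin, was called in opposite directions between the guides. It was higher with sgRNA2 than with sgRNA1 in vehicle, at 6.79 and 5.79 CPM against 3.31 and 3.84 CPM (log2 0.84 ± 0.17, edgeR adjusted p = 0.000405). It was lower with sgRNA2 in IFN-gamma, at 7.78 and 7.34 CPM against 12.4 and 15.1 CPM (-0.76 ± 0.15, adjusted p = 0.000315). Rosa26 stood at 3.49 and 3.82 CPM in IFN-gamma and 0.920 and 0.987 CPM in vehicle.

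Inhbb, the beta B subunit of activins and inhibins, was lower with sgRNA2 than with sgRNA1 in IFN-gamma, at 1.23 and 1.09 CPM against 3.71 and 3.47 CPM (log2 -1.53 ± 0.40, edgeR adjusted p = 0.00406), with 0.0465 and 0.0992 CPM in Rosa26 cells. Wnt9a, a WNT ligand, was higher with sgRNA2 than with sgRNA1 in vehicle, at 8.30 and 10.3 CPM against 2.97 and 2.78 CPM (1.71 ± 0.23, adjusted p = 4.11e-06), with 1.02 and 1.51 CPM in Rosa26 cells. Egfr and Pdgfc, an epidermal growth factor receptor and a platelet-derived growth factor, had ratios of 2.13 to 4.32 and 2.25 to 3.96. They and Fgfr1 were the 3 members from a list of 54 growth factors and receptors. Of its 29 genes at the level limit, 4 had a ratio of at least 2 and 1 a ratio of at most 0.5 with sgRNA1 in vehicle, 5 and 6 with sgRNA2 in vehicle, 8 and 1 with sgRNA1 in IFN-gamma, and 4 and 4 with sgRNA2 in IFN-gamma.

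A pair of neighbouring transcripts on chromosome 8 stood together. Foxf1, a forkhead transcription factor of lung and gut mesenchyme in the embryo, and Fendrr, a long noncoding RNA, start 1276 bases apart on opposite strands. Fendrr stood at 13 and 13.8 CPM with sgRNA1, 20.0 and 15.8 CPM with sgRNA2 and 1.69 and 2.03 CPM with Rosa26 in vehicle, and Foxf1 at 13.6 and 10.7 CPM with sgRNA1, 12.3 and 15.5 CPM with sgRNA2 and 2.09 and 1.71 CPM with Rosa26. In IFN-gamma Fendrr stood at 9.65 and 10.3 CPM with sgRNA1, 9.18 and 10.8 CPM with sgRNA2 and 1.30 and 0.992 CPM with Rosa26. Foxf1 there stood at 15.8 and 17.5 CPM with sgRNA1, 15.1 and 16.0 CPM with sgRNA2 and 2.56 and 2.13 CPM with Rosa26. Per kilobase of exon over the 8 Cebpd libraries, Foxf1 averaged 6.03 and Fendrr 3.85 CPM.

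With IFN-gamma the pair did not move alike. Fendrr fell, at -0.57 ± 0.14 in sgRNA1 cells and -0.91 ± 0.14 in sgRNA2 cells (log2, edgeR adjusted p = 0.00199 and 1.64e-05), whereas Foxf1 gave 0.30 ± 0.14 and 0.10 ± 0.14 (adjusted p = 0.0754 and 0.564). Fendrr also fell in Rosa26 cells, at -0.65 ± 0.26 (adjusted p = 0.0326), a call that ended by DESeq2 (-0.64) and without replicate 2 of Rosa26 in IFN-gamma (-0.46) or in vehicle (-0.51). The noncoding, paternally imprinted H19, named here after its values were seen, was at 4.38 and 5.24 CPM with sgRNA2 against 1.53 and 2.25 CPM with sgRNA1 in vehicle, and at 0.358 and 0.104 CPM with Rosa26.

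Other close pairs were Krt14 and Krt16, Btn1a1 and Btn2a2, and Serpinb6b and Serpinb9b, each within 100 kb and on 1 strand. Each of these pairs comes from a family of related sequences, so reads that match more than 1 copy could be shared or lost. Over the set, chromosome 8 held 14 genes (10.4% of the set against 5.62% of the genes at the level limit), chromosome 14 held 10 (7.46% against 3.28%), chromosome 3 held 11 (8.21% against 4.96%) and chromosome 13 held 9 (6.72% against 3.80%). Other chromosomes had lower shares, among them 5 (3.73% against 6.53%), 4 (3.73% against 6.31%) and 1 (2.99% against 5.76%). Protein-coding genes were 121 of 134 (90.3% against 93.0%), 11 were noncoding and 2 were pseudogenes. The median exon length was 3216 bases, against 4381 bases over the annotated genes at the level limit. None of these shares was tested.

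**Figure D3:**
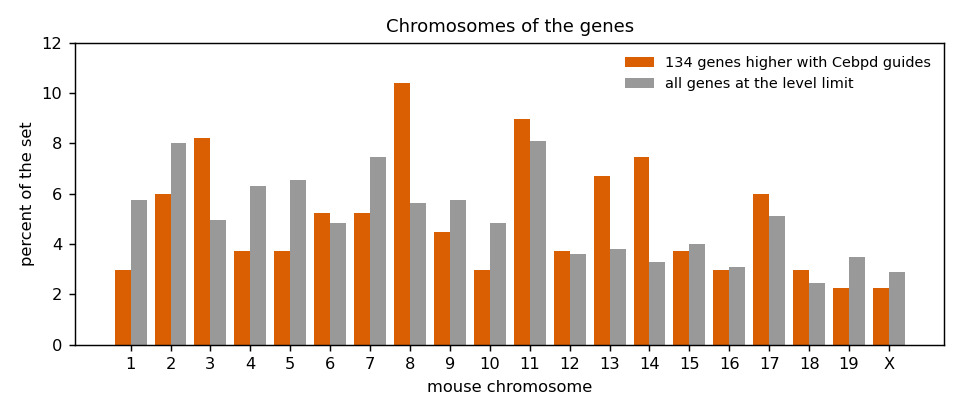
Share of the 134 genes and of all genes at the level limit on each mouse chromosome, in percent. Among the chromosomes where the bar of the set is taller are 3, 8, 13 and 14, on which the set has 11, 14, 9 and 10 genes. Among those where it is shorter are 1, 4 and 5, with 4, 5 and 5 genes.

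Epithelial junction and keratin genes included Cldn3 and Mal2, which with Cyp1b1 were the 3 members with the highest mean CPM. Cldn3, a claudin of tight junctions, stood at 164 and 146 CPM with sgRNA1, 149 and 129.6 CPM with sgRNA2 and 62.5 and 60.4 CPM with Rosa26 in vehicle, and at 221 and 213 CPM with sgRNA1, 162 and 169.7 CPM with sgRNA2 and 70.1 and 63.8 CPM with Rosa26 in IFN-gamma. Mal2, a membrane protein of apical sorting, had ratios of 3.04 to 3.53. Per kilobase of exon, Cldn3 averaged 134 CPM over the Cebpd libraries and 51 CPM over the Rosa26 libraries, above Mal2 at 29.3 and 8.87 CPM, Sdcbp2 (syntenin-2) at 27.5 and 9.22 CPM and Cyp1b1 at 20.2 and 1.40 CPM.

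Sdcbp2 rose with IFN-gamma in all 3 lines. It stood at 58.3 and 55.9 CPM with sgRNA1, 48 and 48.7 CPM with sgRNA2 and 16.3 and 13.9 CPM with Rosa26 in IFN-gamma, and at 19.9 and 24.2 CPM with sgRNA1, 25.5 and 27.1 CPM with sgRNA2 and 10.3 and 11.1 CPM with Rosa26 in vehicle. The rises were 1.23 ± 0.09 in sgRNA1 cells, 0.81 ± 0.09 in sgRNA2 cells and 0.54 ± 0.11 in Rosa26 cells (log2, edgeR adjusted p = 9.46e-10, 2.10e-07 and 0.000260).

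The keratins Krt14 and Krt16 answered IFN-gamma in opposite ways. Krt16, a keratin of stressed epidermis, stood at 20.6 and 17.7 CPM with sgRNA1, 20.5 and 21.0 CPM with sgRNA2 and 4.28 and 3.37 CPM with Rosa26 in IFN-gamma, and at 1.38 and 0.887 CPM with sgRNA1, 4.58 and 3.93 CPM with sgRNA2 and 0.562 and 0.364 CPM with Rosa26 in vehicle. It rose by 3.90 ± 0.20 in sgRNA1 cells, 2.21 ± 0.16 in sgRNA2 cells and 3.07 ± 0.29 in Rosa26 cells (log2, edgeR adjusted p = 1.18e-11, 1.49e-09 and 1.93e-08). Krt14, a basal cell keratin, fell, at -0.40 ± 0.12 in sgRNA1 cells, -0.87 ± 0.12 in sgRNA2 cells and -0.67 ± 0.15 in Rosa26 cells (adjusted p = 0.00805, 4.94e-06 and 0.000485). The fall in sgRNA1 cells ended as a call without replicate 1 in vehicle (-0.34) or replicate 2 in IFN-gamma (-0.38).

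Krt14, Cldn3 and the P-cadherin gene Cdh3 were the members of a list of 38 epithelial identity genes. Of its 28 genes at the level limit, a ratio of at least 2 was found for 4 with sgRNA1 and 6 with sgRNA2 in vehicle, and for 3 with each guide in IFN-gamma, with medians of 0.934, 1.23, 0.909 and 0.791. A ratio of at most 0.5 was found for 0 with either guide in vehicle, and for 1 with sgRNA1 and 3 with sgRNA2 in IFN-gamma. Of a list of 23 mesenchymal identity genes, 8 were at the level limit and none was in the set. With 134 of the 12024 genes at that limit chosen, a list so short says little by its absence.

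Genes of innate immunity were 9. Saa3, an acute phase serum amyloid whose upstream C/EBP match is printed above, stood at 20.1 and 17.7 CPM with sgRNA1, 9.93 and 11 CPM with sgRNA2 and 1.44 and 1.29 CPM with Rosa26 in IFN-gamma, and at 2.77 and 1.95 CPM with sgRNA1, 0.755 and 1.15 CPM with sgRNA2 and 0.358 and 0.0520 CPM with Rosa26 in vehicle. It rose by 2.83 ± 0.21 in sgRNA1 cells, 3.40 ± 0.26 in sgRNA2 cells and 2.73 ± 0.47 in Rosa26 cells (log2, edgeR adjusted p = 1.82e-09, 2.54e-09 and 5.00e-05). Saa3 was lower with sgRNA2 than with sgRNA1, by -1.31 ± 0.31 in vehicle and -0.75 ± 0.17 in IFN-gamma (adjusted p = 0.00149 and 0.00167). The median log2 difference of the set was 0.36 in vehicle and 0.02 in IFN-gamma.

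Cmpk2, a mitochondrial nucleotide kinase of the type I interferon response, stood at 37.4 and 36.2 CPM with sgRNA1, 25.5 and 27.1 CPM with sgRNA2 and 9.77 and 10.6 CPM with Rosa26 in IFN-gamma, and at 0.940 and 2.19 CPM with sgRNA1, 1.91 and 2.19 CPM with sgRNA2 and 0.255 and 0.260 CPM with Rosa26 in vehicle. It rose in all 3 lines, by 4.45 ± 0.19 in sgRNA1 cells, 3.61 ± 0.18 in sgRNA2 cells and 5.31 ± 0.29 in Rosa26 cells (log2, edgeR adjusted p = 9.64e-13, 1.01e-11 and 1.35e-11). It was the member taken from a list of 37 type I interferon response genes, of which 36 rose in Rosa26 cells, where 36.4% of all tested genes rose. No gene of a list of 43 IFN-gamma response genes was in the set, though 40 of its 40 tested genes rose with IFN-gamma in each line. Of its 29 genes at the level limit, 13 with sgRNA1 and 22 with sgRNA2 had a ratio of at least 2 in vehicle. In IFN-gamma 0 did with either guide. A ratio of at most 0.5 was found for 0 with sgRNA1 and 2 with sgRNA2 in vehicle, and for 3 and 1 in IFN-gamma.

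Btn1a1, the butyrophilin of milk fat globules and the member from a list of mammary differentiation genes, rose in sgRNA1 cells to 9.14 and 7.16 CPM in IFN-gamma, against 1.88 and 2.72 CPM in vehicle (log2 1.69 ± 0.25, edgeR adjusted p = 1.05e-05). In sgRNA2 cells it stood at 5.91 and 6.09 CPM in IFN-gamma and 4.78 and 4.70 CPM in vehicle (0.27 ± 0.23, adjusted p = 0.318), and the response was smaller there by -1.42 ± 0.34 (adjusted p = 0.00242). Its neighbour Btn2a2 had 12 counts in IFN-gamma and 1 count in vehicle in Rosa26 cells, a ratio of 11.2 (95% counting interval 1.65 to 478).

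Cd40, a receptor of the tumour necrosis factor receptor family, rose with IFN-gamma in Rosa26 cells. It stood at 2.14 and 2.43 CPM in IFN-gamma and 0.817 and 0.520 CPM in vehicle in Rosa26 cells (log2 1.80 ± 0.31, edgeR adjusted p = 5.26e-05). In guide cells it stood at 7.21 and 7.87 CPM in IFN-gamma and 5.74 and 7.69 CPM in vehicle with sgRNA1, and at 12.3 and 9.76 CPM in IFN-gamma and 9.36 and 10.8 CPM in vehicle with sgRNA2 (0.03 ± 0.18 and 0.05 ± 0.17, adjusted p = 0.911 and 0.797). Itgb3, the beta-3 integrin subunit, likewise rose in Rosa26 cells by 2.05 ± 0.24 (adjusted p = 4.47e-07). It fell in sgRNA2 cells, at -0.81 ± 0.15 (adjusted p = 0.000158), and sgRNA1 cells gave 0.09 ± 0.16 (adjusted p = 0.661). For Cd40 and Itgb3 the contrast of the guide lines with Rosa26 was not tested, being made of ratios that chose the genes.

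Cd40, Itgb3 and Raet1d, a ligand of the natural killer cell receptor NKG2D, were the members from a list of 48 immune and adhesion surface genes. Of its 35 genes at the level limit, 10 had a ratio of at least 2 with sgRNA1 and 15 with sgRNA2 in vehicle, and 6 with sgRNA1 and 3 with sgRNA2 in IFN-gamma. A ratio of at most 0.5 was found for 0 with either guide in vehicle, and for 4 with sgRNA1 and 2 with sgRNA2 in IFN-gamma. The list medians were 1.25 with sgRNA1 and 1.59 with sgRNA2 in vehicle, and 0.966 with sgRNA1 and 0.89 with sgRNA2 in IFN-gamma. Raet1d shares 363 exon bases with its neighbour Raet1e on the same strand, so its counts are uncertain.

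Proteases, their inhibitors and matrix proteins made up the rest of the named genes. Plat, tissue plasminogen activator, stood at 21.0 and 18.3 CPM with sgRNA1, 46.1 and 46.5 CPM with sgRNA2 and 7.97 and 8.94 CPM with Rosa26 in vehicle, and at 34.7 and 31.6 CPM with sgRNA1, 34.3 and 39.8 CPM with sgRNA2 and 12.1 and 12.8 CPM with Rosa26 in IFN-gamma. Plat rose with IFN-gamma by 0.61 ± 0.09 in sgRNA1 cells and 0.60 ± 0.11 in Rosa26 cells, and fell, at -0.39 ± 0.08 in sgRNA2 cells (log2, edgeR adjusted p = 1.40e-05, 0.000133 and 0.000543). The responses of the guides differed by -0.99 ± 0.12 (sgRNA2 minus sgRNA1, adjusted p = 4.36e-06).

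Serpinb6b, an intracellular serine protease inhibitor, stood at 41 and 40.6 CPM with sgRNA2, 27.2 and 27.6 CPM with sgRNA1 and 7.68 and 8.63 CPM with Rosa26 in IFN-gamma, and at 25.3 and 21.9 CPM with sgRNA2, 17.8 and 18 CPM with sgRNA1 and 2.81 and 3.17 CPM with Rosa26 in vehicle. It was higher with sgRNA2 than with sgRNA1 in both treatments, by 0.68 ± 0.09 in IFN-gamma and 0.42 ± 0.09 in vehicle (log2, edgeR adjusted p = 4.89e-06 and 0.000800). It also rose with IFN-gamma in all 3 lines.

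Ccn5, a matricellular protein also called WISP2, stood at 6.09 and 5.57 CPM with sgRNA2 against 1.38 and 0.769 CPM with sgRNA1 in vehicle, a difference of 2.43 ± 0.33 on the log2 scale (edgeR, adjusted p = 5.83e-06). No read was counted in Rosa26 cells in vehicle, so it was at least 6.97-fold higher with sgRNA1 and at least 37.7-fold higher with sgRNA2. In IFN-gamma it stood at 0.805 and 0.646 CPM with sgRNA2 and 0.812 and 0.814 CPM with sgRNA1, and at 0.0465 and 0.0992 CPM with Rosa26. It fell with IFN-gamma in sgRNA2 cells, at -3.08 ± 0.34 (adjusted p = 6.45e-07). Podnl1, a small leucine-rich repeat protein, was more even: its 4 ratios were 4.75 to 6.29, and its level over the 8 guide libraries was 18.3 to 26.2 CPM, against 3.59 to 4.91 CPM over the 4 Rosa26 libraries.

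Ccn5, Thbs3 (thrombospondin-3) and Col1a1 were the members from a list of 59 matrix and matricellular genes. Of its 30 genes at the level limit, 7 had a ratio of at least 2 and 1 a ratio of at most 0.5 with sgRNA1 in vehicle, and 10 and 0 with sgRNA2. In IFN-gamma the counts were 7 and 6 with sgRNA1 and 5 and 4 with sgRNA2. Thbs3 shares 318 exon bases with Mtx1 on the opposite strand.

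Some members are markers of cells other than the carcinoma line. Csf1r, the macrophage colony-stimulating factor receptor, stood at 7.30 and 8.69 CPM with sgRNA2, 3.66 and 1.95 CPM with sgRNA1 and 0.766 and 0.727 CPM with Rosa26 in vehicle, and it shares 873 exon bases with Hmgxb3 on the opposite strand. The 6 macrophage and myeloid markers counted (of 9) summed to 45.6 to 47.0 CPM with sgRNA2, 27.1 to 29.2 CPM with sgRNA1 and 15.7 to 17.1 CPM with Rosa26 in vehicle, and to 46.9 to 48.2 CPM with sgRNA2, 45.6 to 47.5 CPM with sgRNA1 and 43.9 to 44 CPM with Rosa26 in IFN-gamma. Most of that sum was Cd14 and Cd68: Cd14 averaged 12.9 CPM with sgRNA2, 19.8 CPM with sgRNA1 and 9.87 CPM with Rosa26 in vehicle, and Cd68 24.6, 4.67 and 4.38 CPM in the same order. Mrc1, another marker of the list, averaged 0.395 CPM with sgRNA2, 0.588 CPM with sgRNA1 and 1.08 CPM with Rosa26 in vehicle, and Ptprc 0.374, 0.163 and 0.335 CPM. In IFN-gamma, in the same order, Cd14 averaged 15.2, 29.3 and 8.45 CPM, Cd68 30.2, 13.1 and 33.9 CPM and Csf1r 1.16, 1.52 and 0.451 CPM. Mrc1 there averaged 0.927, 2.49 and 0.938 CPM, and Ptprc 0, 0.0796 and 0.169 CPM. S100a8, a calcium-binding protein of neutrophils, was the only 1 of 6 neutrophil markers counted, at 2.23 to 4.67 CPM in guide cells and 0.977 to 1.09 CPM in Rosa26 cells in IFN-gamma, and at 0.989 to 2.08 CPM in guide cells and 0 to 0.156 CPM in Rosa26 cells in vehicle. Col1a1, the type I collagen chain of fibroblasts, was 1 of 3 fibroblast markers counted (of 8), whose sum was 31.2 to 31.5 CPM with sgRNA2, 18.7 to 20.7 CPM with sgRNA1 and 14.1 to 15 CPM with Rosa26 in vehicle. In IFN-gamma that sum was 22.3 to 27.4 CPM with sgRNA2, 30.1 to 33.6 CPM with sgRNA1 and 23.9 to 24.6 CPM with Rosa26. Most of it was Pdgfra, which averaged 27.3 CPM with sgRNA2, 18.1 CPM with sgRNA1 and 14.3 CPM with Rosa26 in vehicle. In the same order Col1a1 averaged 3.8, 1.18 and 0.181 CPM and Fap 0.319, 0.346 and 0.104 CPM. With IFN-gamma added, Pdgfra averaged 23.7, 29.9 and 23.6 CPM and Fap 0.128, 0.207 and 0.245 CPM. The 2 endothelial markers counted (of 5) summed to at most 0.473 CPM in any library, and 0 of 8 markers of T, B and NK cells and 0 of 5 of red cells were among the genes counted. The part of other cells in these levels was not tested.

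The response of the set to IFN-gamma, in each line by itself, was a comparison the rule did not use, although the same libraries chose the genes. The difference of a guide's response from that of Rosa26 cells is made of 2 of the ratios that chose the genes. The limit of 0.5 CPM in both treatments also bounds falls in the guide lines. How the genes were chosen can thus shape the values of the lines set side by side, and differences from Rosa26 were not tested. All 134 genes were among the 13601 genes tested. In sgRNA1 cells 41 of the 134 genes rose and 18 fell, where 31.7% and 29.6% of all tested genes did. In sgRNA2 cells 31 rose and 33 fell, where 30.5% and 29.2% of all tested genes did. With upper quartile scaling 21 rose and 37 fell in sgRNA2 cells, and the share of rises among the calls of all genes was 38.1%, against 51.1% with the scaling used here. In Rosa26 cells 46 rose and 10 fell, where 36.4% and 34.1% of all tested genes did. Without replicate 2 of sgRNA1 in IFN-gamma, 10 rather than 18 genes fell in sgRNA1 cells, and without replicate 2 of Rosa26 in vehicle 6 rather than 10 fell in Rosa26 cells. The median log2 fold change was 0.18 in sgRNA1 cells, -0.13 in sgRNA2 cells and 0.50 in Rosa26 cells, and over all tested genes -0.00, -0.02 and 0.01.

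Shares of calls also go with depth. The 134 genes averaged a median of 2.09 CPM over the 12 libraries, against 26.5 CPM over all genes tested, and 44 of them (32.8%) were called in no line, against 11.4% of all genes. The part of low counts in these shares was not tested. In all 3 lines together 19 genes rose (14.2% against 13.3% of all genes), among them Cyp1b1, Acod1, Cmpk2, Saa3 and Krt16, and 6 fell (4.48% against 8.25%). Calls of opposite direction between lines were met for 8 genes (5.97% against 23.9%).

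Of the members that fell in Rosa26 cells, those with the largest falls had few counts. The noncoding Gm26877 stood at 0.0931 and 0.298 CPM in IFN-gamma and 0.868 and 1.25 CPM in vehicle in Rosa26 cells (log2 -2.38 ± 0.53, edgeR adjusted p = 0.000586), and Ttll11, a tubulin glutamylase, gave -2.16 ± 0.57 (adjusted p = 0.00259). Ctsw, a cathepsin known from cytotoxic lymphocytes, fell to 2.37 and 2.43 CPM in IFN-gamma, against 8.68 and 7.53 CPM in vehicle (-1.71 ± 0.16, adjusted p = 1.54e-08). Ctsw fell less steeply in the guide lines, at -0.46 ± 0.11 with sgRNA1 and -0.60 ± 0.12 with sgRNA2 (adjusted p = 0.00207 and 0.000221), a contrast with Rosa26 that was not tested. Tmem74b, a transmembrane protein gene, had 1 count in IFN-gamma and 12 counts in vehicle in Rosa26 cells, a ratio of 0.0777 (95% counting interval 0.00182 to 0.525). Its call ended without replicate 1 of Rosa26 in IFN-gamma (-2.46).

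**Figure D4:**
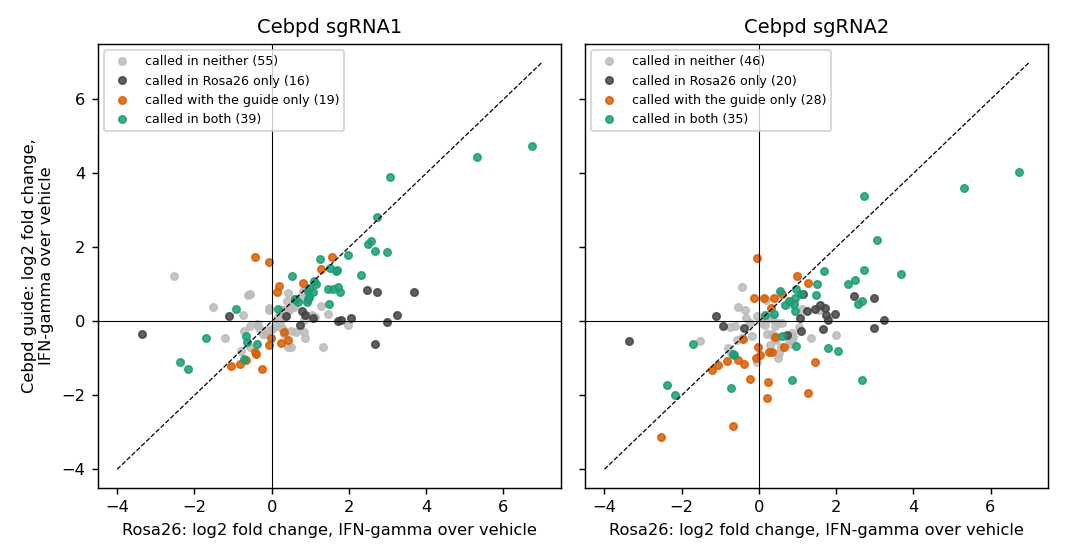
Log2 fold change of IFN-gamma over vehicle with each Cebpd guide (y axis, 1 panel per guide) against that in Rosa26 cells (x axis) for 129 of the 134 genes, leaving out 5 with no count in either Rosa26 library of a treatment; colours give the calls at adjusted p below 0.05. The point farthest right in each panel is Acod1, at 6.74 in Rosa26 cells and 4.74 with sgRNA1 or 4.04 with sgRNA2. Points below the dashed line of equality have a smaller value with the guide than with Rosa26, a difference that the choice of the genes can shape.

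The difference between the guides in a treatment is also the quotient of the 2 ratios over Rosa26 that the rule used there, and the difference of their responses to IFN-gamma is made of all 4, so how the genes were chosen can shape these values. In vehicle 46 of the 134 genes were higher with sgRNA2 and 6 lower, where 33.2% and 29.1% of all tested genes were called (edgeR, adjusted p below 0.05), so that the share called higher was near that of all genes. The median log2 difference was 0.36, against 0.05 over all genes. In IFN-gamma 13 genes were higher with sgRNA2 and 13 lower, where 23.4% and 24.5% of all genes were called, with medians of 0.02 and -0.00. The count of 6 lower genes in vehicle was 3 by DESeq2, and 3 without replicate 1 of sgRNA1 or without replicate 2 of sgRNA2. The counts of 13 in IFN-gamma were 7 higher and 8 lower by DESeq2. The higher count was 7 without replicate 1 and 6 without replicate 2 of sgRNA1 in IFN-gamma, and 6 without replicate 1 and 8 without replicate 2 of sgRNA2 there. The lower count was 8 without replicate 1 of sgRNA1 or replicate 2 of sgRNA2 in IFN-gamma.

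The largest differences in vehicle, after Ccn5, were those of Mgarp and Krt16. Mgarp, a mitochondrial protein of steroidogenic tissue, stood at 7.5 and 9.12 CPM with sgRNA2 against 1.58 and 2.07 CPM with sgRNA1 in vehicle, with 0.562 and 0.468 CPM in Rosa26 cells (log2 2.21 ± 0.22, edgeR adjusted p = 1.13e-07). In IFN-gamma it stood at 2.74 and 3.03 CPM with sgRNA2, 2.13 and 2.44 CPM with sgRNA1 and 0.884 and 0.942 CPM with Rosa26, and the guides gave 0.44 ± 0.23 (adjusted p = 0.134). Unc93b1, the chaperone of endosomal Toll-like receptors, stood at 2.01 and 1.69 CPM with sgRNA2 against 0.445 and 0.650 CPM with sgRNA1 in vehicle (1.79 ± 0.46, adjusted p = 0.00238).

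Other members were called between the guides in 1 treatment or both. Jag2, a Notch ligand, stood at 18.6 and 16.4 CPM with sgRNA2 against 22.7 and 22.9 CPM with sgRNA1 in vehicle (log2 -0.36 ± 0.11, edgeR adjusted p = 0.0100, a call that ended without replicate 2 of sgRNA2 there, at -0.31). Nme4, a mitochondrial nucleoside diphosphate kinase, was higher with sgRNA2 in IFN-gamma, at 18.4 and 18.8 CPM against 12.9 and 12 CPM with sgRNA1 (0.68 ± 0.15, adjusted p = 0.000909). Bcl2l15, a BCL2 family protein, gave -0.72 ± 0.27 in vehicle and Pcdh18, a protocadherin, -1.31 ± 0.45 in IFN-gamma (adjusted p = 0.0277 and 0.0225), calls that DESeq2 did not make.

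The IFN-gamma response itself differed between the guides for 30 genes (edgeR, adjusted p below 0.05). The log2 change was more positive with sgRNA2 for 2 and more negative for 28, where 20.9% and 21.9% of all tested genes were called. A more negative value can be a smaller rise or a larger fall. Krt16 rose by 2.21 in sgRNA2 cells and 3.90 in sgRNA1 cells, while Csf1r fell, at -2.82 and -1.05 in the same order. The 2 genes with a more positive value were Nqo1, described above, and Podnl1 at 0.64 ± 0.15 (adjusted p = 0.00182). Among the 28, Col1a1 gave -2.35 ± 0.48 (adjusted p = 0.000647): it stood at 1.07 and 1.01 CPM in IFN-gamma and 3.77 and 3.82 CPM in vehicle with sgRNA2, and at 2.08 and 1.41 CPM in IFN-gamma and 1.19 and 1.18 CPM in vehicle with sgRNA1. Csf1r gave -1.77 ± 0.46 (adjusted p = 0.00453), Anxa8, an annexin that binds membrane lipids, -1.35 ± 0.17 (adjusted p = 6.04e-06), and Masp1, a complement lectin pathway protease, -1.06 ± 0.20 (adjusted p = 0.000308). Anxa8 stood at 40.6 and 40.8 CPM in IFN-gamma and 25.5 and 27.6 CPM in vehicle with sgRNA2, and at 35.9 and 34.4 CPM in IFN-gamma and 7.76 and 9.40 CPM in vehicle with sgRNA1.

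**Figure D5:**
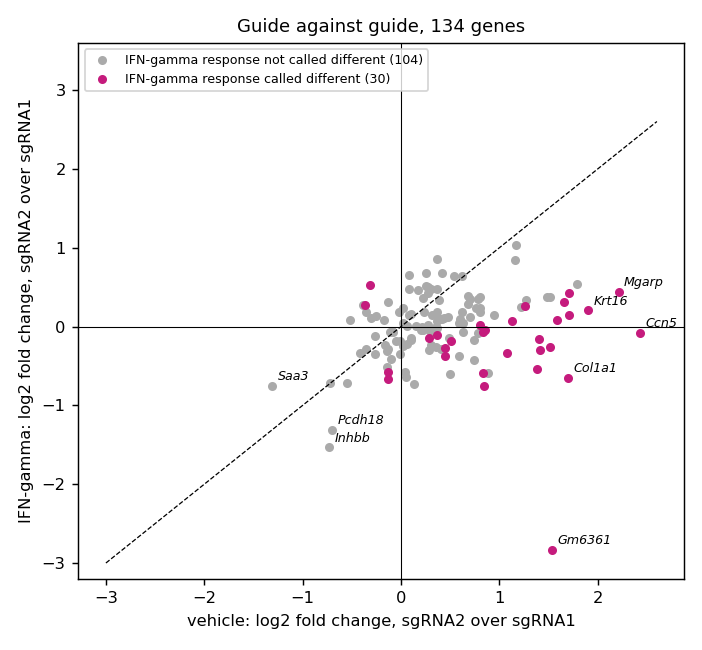
Log2 fold change of sgRNA2 over sgRNA1 in IFN-gamma (y axis) against that in vehicle (x axis) for the 134 genes; the 30 genes whose IFN-gamma response was called different between the guides are coloured, and the dashed line marks equal differences. Most coloured points lie right of 0 in vehicle and near or below 0 in IFN-gamma.

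The edge of the set was crowded. Just inside the limit of 2 lay Moxd1, a copper monooxygenase, with a smallest ratio of 2, then Gm49668 at 2.016, A430093F15Rik at 2.020 and Krt14 at 2.032. Just outside lay Mcam at 1.996, Dapk2 at 1.978 and 9230116N13Rik at 1.977. A smallest ratio of at least 3 was reached by 44 of the 134 genes, of at least 5 by 15 and of at least 10 by 2, Gatm and Cyp1b1.

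Exons of 26 of the 134 genes lie on exons of a gene on the opposite strand. As nothing states that the counting used strand, reads of such partners cannot be told apart.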

How the data were processed

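Raw read counts per gene, as deposited, were the starting point. Per the submitters' processing notes, the tools were STAR 2.4.0, HTSeq and DESeq2 1.10 on mm10; nothing states how strand was counted. From these counts, CPM was computed on column totals. The genes and lists described were chosen with earlier results of these data known. Tests used edgeR 4.0.16 (R 4.3.3): TMM scaling, genes with too few counts removed (minimum count 10, minimum total 15), 1 term for each of 6 groups, 6 residual degrees of freedom, and the quasi-likelihood test with Benjamini-Hochberg adjustment over 13601 genes. A call means adjusted p below 0.05. The SE after each ± was worked back from the test, as the absolute log2 value divided by the square root of the F statistic. It is approximate, above all at low counts. CPM, ratio and counting intervals cover counting error only. The test was tried on simulated counts before use. Replicates of a group correlated at Spearman's rho of 0.9904 to 0.9920 across genes and differed by more than sampling noise. Genes were placed by name on GENCODE vM21 (134 of 134, 1 by synonym); upstream windows are RefSeq's. Named are the 12 genes with the largest smallest ratio, the 10 most abundant, the 5 largest called changes each way for IFN-gamma in Rosa26 cells and between the guides in each treatment, members of 28 gene lists, and the genes next to the fold limit. A few genes that this rule names are not reported here. Alternatives covered scaling, filters, DESeq2 1.42.0, a replicate block and leaving out each library.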

Additional observations from a re-analysis of the deposited data

Results flagged for a closer look

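For 30 of the 134 genes the IFN-gamma response differed between the 2 Cebpd guides by a test of the difference (edgeR, adjusted p below 0.05). The log2 change was more positive with sgRNA2 for 2 of them and more negative for 28. Over all genes tested 20.9% and 21.9% were called in these directions, against 1.49% and 20.9% of the 134 genes. The share with a more negative value was thus near that of all genes, and the share with a more positive value was lower. The part of low counts in these shares was not tested. The difference between the responses of the guides is made of the ratios that chose the genes. Among the called genes the largest differences, as sgRNA2 minus sgRNA1 on the log2 scale, were 0.85 for Nqo1 and 0.64 for Podnl1 in the positive direction. In the negative direction they were -4.35 for Gm6361, -2.51 for Ccn5 and -2.35 for Col1a1. Gm6361, a gene at 0 and 3.07 CPM with sgRNA2 and 10.7 and 15 CPM with sgRNA1 in IFN-gamma, and at 12.1 and 16.0 CPM with sgRNA2 and 1.14 and 9.11 CPM with sgRNA1 in vehicle, varied between libraries of 1 group, and its call ended under DESeq2 (-4.43). Of the other 4 genes, none lost its call under another scaling, without a filter, under DESeq2 or without any 1 library.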

How the results depend on the processing

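The number of genes chosen depended on the settings of the rule: 41 with 1 CPM added in place of 0.1, 213 with no level limit, 367 at a fold limit of 1.5, 44 at a fold limit of 3, and 65 when every library rather than the group mean had to pass; it was 116 with TMM-scaled sizes, 111 with DESeq2 size factors, 97 at a limit of 1 CPM and 125 to 148 leaving out 1 library. DESeq2 called 3 genes lower with sgRNA2 in vehicle, and 7 higher and 8 lower in IFN-gamma, in place of 6, 13 and 13. Leaving out 1 library gave 6 to 12 genes falling in Rosa26 cells, 10 to 18 falling in sgRNA1 cells, 3 to 8 lower with sgRNA2 in vehicle, and 6 to 12 higher and 8 to 13 lower in IFN-gamma. With 1 library left in a group, that library is assumed to vary like the other groups. No called log2 value of a named gene changed sign among these alternatives. Upper quartile scaling did turn the balance of calls over all genes: the share of rises with IFN-gamma was 42.7% in sgRNA1 cells, 38.1% in sgRNA2 cells and 47.9% in Rosa26 cells, against 51.7%, 51.1% and 51.6%, and the share higher with sgRNA2 in IFN-gamma was 54.8%, against 48.8%. Under it the median log2 of all genes for IFN-gamma in sgRNA2 cells was -0.137, and that between the guides in vehicle 0.114. The replicate numbers did not pair the libraries (correlations of deviations of -0.30 to 0.18, over 0.1 in 1 of 15 pairs of groups), and with the replicate block the counts were 47 and 10 for IFN-gamma in Rosa26 cells, and 11 and 13 between the guides in IFN-gamma. Most of the genes have few counts, which limits what single-gene tests can show.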
